A study of Homo sapiens with 6 samples.

Results

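Small nucleolar RNA (snoRNA) host genes are transcribed as long RNAs whose introns carry snoRNAs. After splicing, the introns are trimmed to the snoRNAs, which guide ribose methylation (box C/D class) or pseudouridylation (box H/ACA class) of ribosomal and other RNAs. The spliced exons of most noncoding hosts have little coding potential and many are degraded by nonsense-mediated decay, a translation-dependent pathway, and several hosts start with the pyrimidine tract of terminal oligopyrimidine (TOP) transcripts, which they share with ribosomal protein mRNAs. The level of a host RNA is therefore not the level of its snoRNA. Counts of a host gene may also include forms that retain introns, as 19 of the 29 annotated GAS5 transcripts do.

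The hosts were taken as the rows of the count table whose symbol is SNHG followed by a number, GAS5, EPB41L4A-AS1 or ZFAS1, which gave 31 of 61860 rows. The libraries were made from total RNA of 786-O, a clear cell renal carcinoma line that lacks functional VHL. Cells carried a stable shRNA either to METTL3, the enzyme that writes N6-methyladenosine (m6A) into mRNA, or a control shRNA, with 3 libraries each, which go by their column letters A, B and C. All libraries came from 1 cell line, and the labels give neither the hairpin sequences nor separate cultures or clones, so each p-value reflects library-to-library spread that may be technical only. The knockdown columns are headed by a number without an explanation in the labels and were given to the METTL3 shRNA by elimination.

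The total count ran from 100534896 to 101473388 in the METTL3 knockdown libraries and from 102420127 to 103624456 in the control libraries. METTL3 itself had 11.3, 9.84 and 11.4 CPM in knockdown libraries A, B and C, against 37.2, 38.1 and 37.6 CPM in the control libraries, where CPM is the count scaled to the TMM-adjusted library total (log2 fold change -1.80, SE 0.08, edgeR adjusted p = 1.45e-07). All of 9 genes listed under kidney epithelial identity, a list that also holds VIM and CDH2, passed the filter on low counts. Of these, 3 were higher (PAX8 0.32, VIM 1.02 and CA12 1.41 in log2 fold change) and KRT19 was lower (-0.56). The other 5 did not pass, among them KRT8 (0.01) and KRT18 (-0.05). Over all genes tested, 16.5% were higher and 16.9% lower. Among the leukocyte genes, CD3E had 0 counts and PTPRC at most 4. CD68, which also marks lysosomes of other cells, had 104 CPM in the knockdown and 53.5 CPM in the control libraries and was higher, and CD14, with 0.08 CPM in the knockdown and 0.21 CPM in the control libraries, was lower. None of 5 endothelial genes exceeded 12 counts. Of 6 fibroblast genes, COL1A1 and PDGFRB passed the filter, at 1.17 and 0.93 CPM in the knockdown and 1.60 and 2.15 CPM in the control libraries. Whether any of these bear on the hosts was not tested.

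RefSeq windows of 250 bases before to 50 bases after the annotated start (GRCh38.p14) were matched for 27 of the 31 hosts. A C at the annotated start followed by at least 4 further pyrimidines, on the transcribed strand, was found in 7 of the 27 windows (25.9%) and in 4.07% of all 35116 windows of the same length. The 30 bases from 10 before the start to 20 after it are given for all 7 hosts with the tract, in capitals, and for SNHG16, SNHG8 and SNHG17 as examples without it, so the set shown is richer in the tract than the hosts as a whole.
SNHG19 (chr16:2155339-2155368, minus strand): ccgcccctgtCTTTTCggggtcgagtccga
SNHG18 (chr5:9546190-9546219, plus strand): gccgcgccgcCTCCTCCTCCTCCTCCTCCC
SNHG12 (chr1:28581854-28581883, minus strand): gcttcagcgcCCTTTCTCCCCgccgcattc
SNHG5 (chr6:85678714-85678743, minus strand): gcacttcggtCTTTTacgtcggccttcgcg
SNHG16 (chr17:76557754-76557783, plus strand): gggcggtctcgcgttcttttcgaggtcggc
SNHG8 (chr4:118278752-118278781, plus strand): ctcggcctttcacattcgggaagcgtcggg
ZFAS1 (chr20:49278632-49278661, plus strand): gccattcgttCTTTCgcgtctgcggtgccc
SNHG32 (chr6:31834906-31834935, plus strand): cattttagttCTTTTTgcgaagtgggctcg
SNHG4 (chr5:139274091-139274120, plus strand): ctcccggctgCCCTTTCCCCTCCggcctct
SNHG17 (chr20:38435309-38435338, minus strand): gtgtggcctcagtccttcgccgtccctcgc
GAS5 has no such tract at its annotated start. Bases 21 to 50 after its annotated start hold a run of pyrimidines from base 32.
GAS5 (chr1:173868996-173869025, minus strand): ctacaccagcgCCTTTTTTgtttgctcttt

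Of the 31 hosts, SNHG27 held no snoRNA within its span in RefSeq and SNHG28 none of a known class. Of the snoRNAs of the others, 3 are shown with their conserved boxes in capitals, as GENCODE 29 gives them on GRCh38. SNORD50B of SNHG5 and SNORD60 of SNHG19 are box C/D snoRNAs, with the letters TGATGA of box C near the start and CTGA of box D near the end. SNORA24 of SNHG8 is a box H/ACA snoRNA, with its ACA 3 bases before the end.
SNORD50B (chr6:85677589-85677658, minus strand): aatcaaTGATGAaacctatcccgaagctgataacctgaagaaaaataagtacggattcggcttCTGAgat
SNORD60 (chr16:2155023-2155105, minus strand): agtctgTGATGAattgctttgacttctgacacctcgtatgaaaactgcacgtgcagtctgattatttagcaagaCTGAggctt
SNORA24 (chr4:118279190-118279320, plus strand): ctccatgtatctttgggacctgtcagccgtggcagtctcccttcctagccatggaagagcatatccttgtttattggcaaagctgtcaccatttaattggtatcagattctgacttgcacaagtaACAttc

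Of the 31 hosts, 28 passed the filter on low counts and were tested with all other genes. In the METTL3 knockdown libraries 15 hosts were higher, 3 were lower and 10 did not pass (quasi-likelihood test of edgeR, adjusted p under 0.05 by Benjamini-Hochberg over all genes). Over all 18740 genes tested, 33.5% were called, 16.5% higher and 16.9% lower, and over the 2943 long noncoding genes tested, 17.3% were higher and 6.49% lower. These shares include many genes of lower level than most hosts and were not matched for level. With a filter of 1 CPM in 3 libraries, 15 of 26 hosts were higher and 3 lower, beside 2833 higher and 2840 lower of 13810 genes. The median log2 fold change was 0.35 for the 28 hosts, -0.0030 for all genes and 0.15 for the long noncoding genes. The groups did not overlap for 20 of the 28 hosts, against 47.4% of all genes. With scaling by library size alone, 13 hosts were higher and 4 lower, beside 1985 genes higher and 4727 lower among all genes (3099 and 3171 with TMM). In bulk RNA, fewer cells expressing a gene and less of its RNA per cell cannot be told apart. The rises ran from a log2 fold change of 0.31 for SNHG30 to 1.22 for SNHG19, and the falls from -0.42 for SNHG9 to -0.51 for SNHG15. The 31 hosts summed to 3379, 2889 and 3016 CPM in knockdown libraries A, B and C, against 2459, 2609 and 2331 CPM in the control libraries. The sums did not overlap, and few genes held large shares of them. ZFAS1, GAS5 and SNHG29 held 25.7%, 15.6% and 12.2% of the host CPM in the knockdown and 27.2%, 13.3% and 9.37% in the control group.

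**Figure D1:**
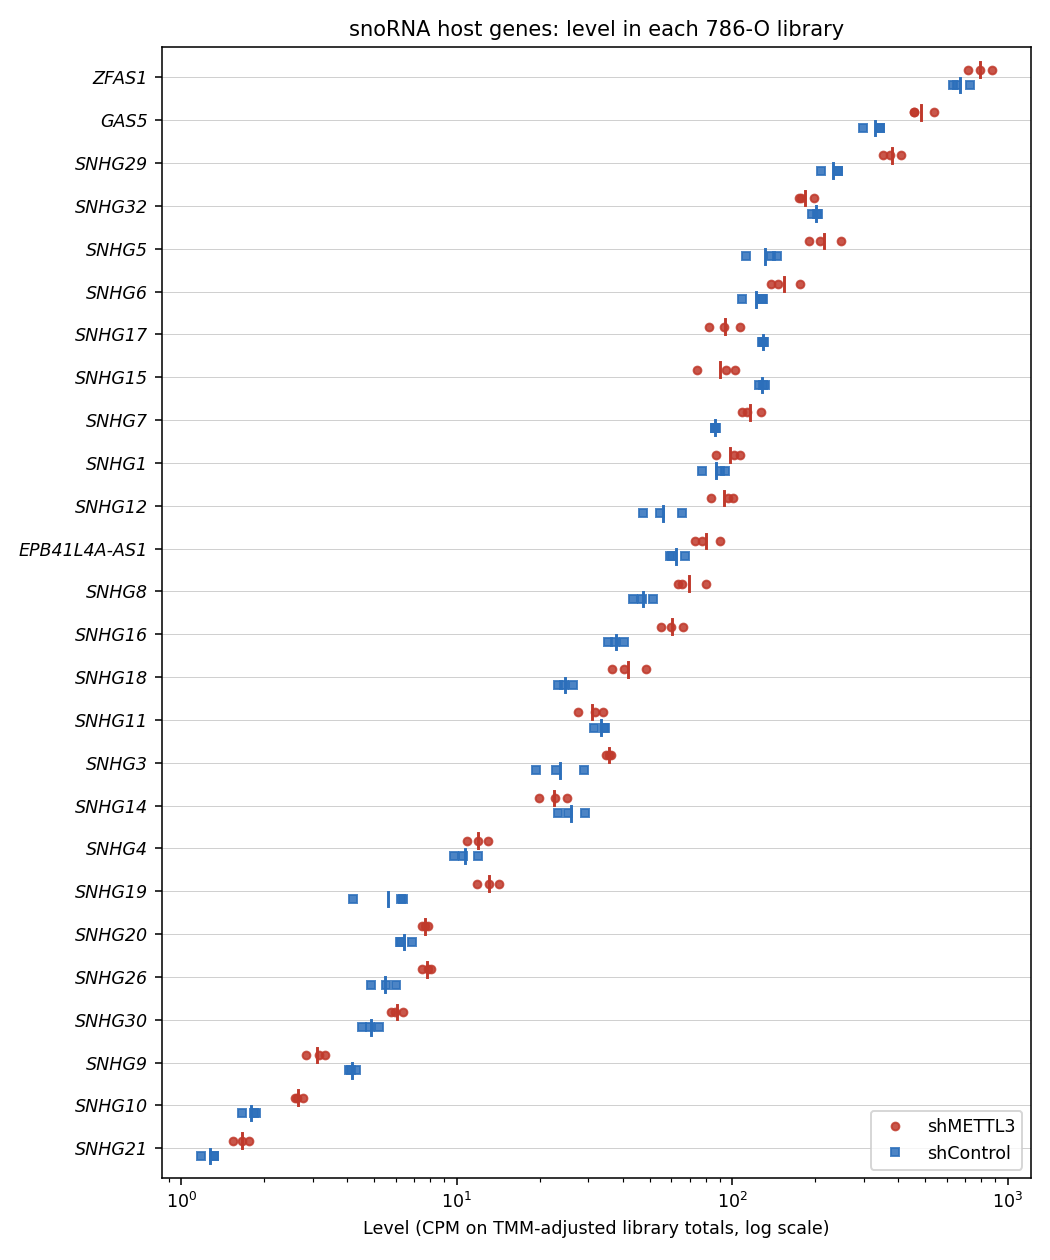
Level of the 26 hosts averaging at least 1 CPM, in CPM on a log axis, with a point for each of 3 METTL3 knockdown libraries (red) and 3 control libraries (blue) and a bar for each group mean. The levels span from about 1 CPM for SNHG21 to 872 CPM for ZFAS1 in knockdown library A, and for GAS5, SNHG29, SNHG5 and SNHG19 the red points lie to the right of all blue ones.

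The calls differed in number between the classes of snoRNA. Of the 12 tested hosts whose classed RefSeq snoRNAs are all box C/D, 8 were higher, 0 were lower and 4 did not pass, with a median log2 fold change of 0.42. Of the 10 tested hosts whose classed snoRNAs are all box H/ACA, 4 were higher, 3 were lower and 3 did not pass, with a median of 0.02. SNHG1 and SNHG17 each hold 1 further RefSeq snoRNA without a class. All 3 hosts that fell were of the H/ACA kind. The 2 hosts that carry both kinds, GAS5 and SNHG12, were higher. RefSeq snoRNAs were placed in hosts by position, without a check of the strand. GAS5 counts as carrying both kinds through 1 box H/ACA entry, SNORA103. Of the 4 hosts of small Cajal body RNAs, which guide the modification of spliceosomal RNAs, SNHG10 was higher and 3 did not pass. The classes were compared after their values were seen, and the difference between them was not tested.

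Among the box C/D hosts, SNHG19 changed most. SNHG19, the host of SNORD60, is a gene of 2 exons (chromosome 16, 2154797 to 2155358, minus strand). It had 14.2, 13.1 and 11.8 CPM in knockdown libraries A, B and C, against 6.38, 6.25 and 4.21 CPM in the control libraries. Its groups lay far apart, and the level was 133% higher in the knockdown group (log2 fold change 1.22, SE 0.14, edgeR adjusted p = 8.61e-05).

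SNHG18, the host of SNORD123 (chromosome 5, 9546200 to 9550609, plus strand), had 48.6, 40.4 and 36.5 CPM in the knockdown libraries and 24.5, 23.4 and 26.3 CPM in the control libraries. The lowest knockdown value exceeded the highest control value, and the log2 fold change was 0.76 (SE 0.10, edgeR adjusted p = 0.000194). SNHG29, whose introns hold SNORD49A, SNORD49B and SNORD65 (chromosome 17, 16438822 to 16478678, plus strand), had 410, 372 and 352 CPM in the knockdown libraries and 242, 242 and 210 CPM in the control libraries. The groups lay well apart, at a log2 fold change of 0.71 (SE 0.09, edgeR adjusted p = 0.000144). SNHG5, the host of the U50 snoRNAs SNORD50A and SNORD50B (chromosome 6, 85660950 to 85678748, minus strand), had 247, 208 and 189 CPM in the knockdown libraries and 138, 145 and 112 CPM in the control libraries. Here too the groups did not overlap (0.70, SE 0.11, edgeR adjusted p = 0.000581).

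SNHG16, which holds SNORD1A, SNORD1B and SNORD1C (chromosome 17, 76557766 to 76565348, plus strand), had 66.2, 60.03 and 55.2 CPM in the knockdown libraries and 37.5, 40.3 and 35.5 CPM in the control libraries. Each knockdown library was above each control library, at a log2 fold change of 0.68 (SE 0.09, edgeR adjusted p = 0.000142). SNHG26, the host of SNORD93 on chromosome 7, had 7.45, 7.83 and 8.03 CPM in the knockdown libraries and 5.51, 6.03 and 4.87 CPM in the control libraries (0.51, SE 0.11). SNHG6, the host of SNORD87 on chromosome 8, had 175, 147 and 138 CPM in the knockdown libraries and 128, 129 and 108 CPM in the control libraries. Its change was small and its call was less secure (0.33, SE 0.10, edgeR adjusted p = 0.0227), being lost without knockdown library A or control library C (edgeR adjusted p = 0.101 and 0.0963) and with library size alone (edgeR adjusted p = 0.0755). SNHG30, the host of SNORD7 on chromosome 17, had 6.39, 5.96 and 5.78 CPM in the knockdown libraries and 4.52, 4.86 and 5.20 CPM in the control libraries. It stood nearest the threshold of the hosts that rose (0.31, SE 0.11, edgeR adjusted p = 0.036), and its call was lost in 9 of 17 alternative settings, among them those without knockdown library A or B or control library A or B.

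Of the box C/D hosts that did not pass, ZFAS1 was the most abundant host of all. ZFAS1 carries SNORD12, SNORD12B and SNORD12C, starts head to head with the antiviral helicase gene ZNFX1 and lies on the plus strand of chromosome 20, from 49278178 to 49295738. It had 872, 717 and 794 CPM in the knockdown libraries and 652, 728 and 630 CPM in the control libraries. The groups overlapped, because knockdown library B was below control library B (log2 fold change 0.25, SE 0.10, edgeR adjusted p = 0.0663). Of 17 alternative settings, 2 called the rise of ZFAS1, namely DESeq2 (adjusted p = 0.0267) and the edgeR fit with a block for the column letter (adjusted p = 0.0366). The other 15 did not. The log2 fold change was 0.13 with library size alone (edgeR adjusted p = 0.261) and 0.09 in the limma fits of FPKM values. Library size alone and the fits of filtered FPKM also lower the median of all genes. SNHG1, the U22 host gene, which carries 8 box C/D snoRNAs, had 101, 86.9 and 107 CPM in the knockdown libraries and 77.8, 93.8 and 90.2 CPM in the control libraries, with overlapping groups (0.17, SE 0.09, edgeR adjusted p = 0.183).

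SNHG32, a host of SNORD48 and SNORD52 in the class III region of the major histocompatibility complex on chromosome 6, is annotated as the protein-coding gene C6orf48 in GENCODE 29. It had 198, 175 and 177 CPM in the knockdown libraries and 194, 205 and 203 CPM in the control libraries (-0.13, SE 0.08, edgeR adjusted p = 0.227). It is listed with the tract CTTTTT at its start, as shown above, and the groups overlapped. The reading of SNHG32 depends on the scaling: with library size alone it was lower (-0.24, edgeR adjusted p = 0.0285), a setting that moves the median of all genes to -0.11. It was also lower in both limma fits of filtered FPKM values (adjusted p = 0.0351 and 0.0358), which shift the median of all genes likewise (-0.09 and -0.12) and are no separate support. SNHG14, the long imprinted transcript on chromosome 15 that carries the SNORD115 and SNORD116 arrays and runs antisense to UBE3A, had 19.9, 22.6 and 25.1 CPM in the knockdown libraries and 23.2, 25.3 and 29.3 CPM in the control libraries (-0.20, SE 0.10, edgeR adjusted p = 0.149). It holds 83 snoRNAs in RefSeq, by far the most among the hosts. UBE3A, which overlaps 198 bases of its exons on the other strand, did not pass either (-0.10, SE 0.07).

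**Figure D2:**
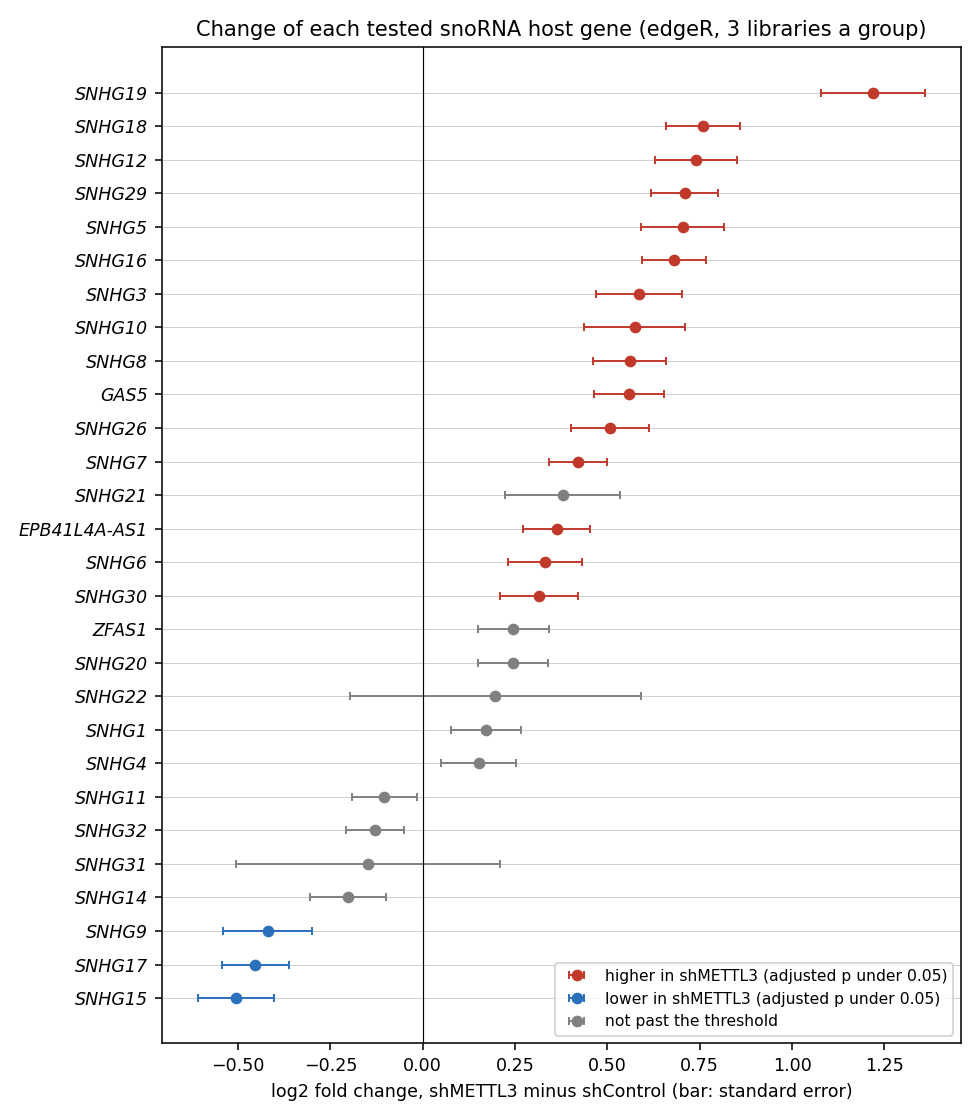
Log2 fold change of each of the 28 tested hosts, METTL3 knockdown minus control, with its standard error as a bar, ordered by size. The 15 hosts higher in the knockdown group (red) run from 0.31 to 1.22, the 3 lower (blue) from -0.51 to -0.42, and 10 (grey) did not pass the threshold.

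GAS5 and SNHG12 carry snoRNAs of both kinds. GAS5, growth arrest-specific 5, a transcript known to accumulate when its translation-dependent decay is blocked (chromosome 1, 173863900 to 173868882, minus strand), holds 10 box C/D snoRNAs and 1 box H/ACA snoRNA in RefSeq. It had 539, 455 and 456 CPM in knockdown libraries A, B and C, against 342, 344 and 298 CPM in the control libraries. The groups did not overlap, and the level was 47.3% higher (log2 fold change 0.56, SE 0.10, edgeR adjusted p = 0.000881). SNHG12 (chromosome 1, 28578538 to 28583132, minus strand), the host of SNORD99, SNORA16A, SNORA44 and SNORA61, had 96.4, 83.3 and 100.1 CPM in the knockdown libraries and 54.6, 65.7 and 47.4 CPM in the control libraries. It was 66.9% higher (0.74, SE 0.11, edgeR adjusted p = 0.000395).

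Among the box H/ACA hosts the changes went both ways. SNHG3 (chromosome 1, 28505980 to 28510892, plus strand) holds SNORA73A and SNORA73B, the U17 snoRNAs that take part in processing of the small-subunit ribosomal RNA. It had 35.6, 36.3 and 34.8 CPM in the knockdown libraries and 22.9, 28.9 and 19.3 CPM in the control libraries, so that the control libraries spread far more widely than the knockdown ones, and all lay lower (0.59, SE 0.12, edgeR adjusted p = 0.00222). SNHG3 shares 242 exonic bases with RCC1 on the same strand, the gene of the exchange factor of RAN, and RCC1 did not pass (0.08, SE 0.09).

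SNHG8, the host of SNORA24 on chromosome 4, had 80.4, 65.4 and 63.6 CPM in the knockdown libraries and 46.8, 51.7 and 43.4 CPM in the control libraries. The groups were apart (0.56, SE 0.10, edgeR adjusted p = 0.00109). SNHG7, the host of SNORA17A and SNORA17B on chromosome 9, had 127, 108 and 113 CPM in the knockdown libraries and 86.6, 87.3 and 86.2 CPM in the control libraries. The control libraries agreed closely, and the log2 fold change was 0.42 (SE 0.08, edgeR adjusted p = 0.00153). EPB41L4A-AS1, the host of SNORA13 on chromosome 5 (112160526 to 112164276, plus strand), had 90.03, 72.8 and 77.5 CPM in the knockdown libraries and 60.4, 67.0 and 59.6 CPM in the control libraries. It passed with a smaller change (0.36, SE 0.09, edgeR adjusted p = 0.0079), and EPB41L4A, which overlaps 1659 of its exonic bases on the other strand, did not (0.32, SE 0.12, edgeR adjusted p = 0.0615).

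The hosts that fell were SNHG15, SNHG17 and SNHG9. SNHG15, the host of SNORA9 (chromosome 7, 44983023 to 44986961, minus strand), had 94.4, 74.2 and 102 CPM in the knockdown libraries and 129, 125 and 131 CPM in the control libraries. It was lower in each knockdown library, with the lowest value in library B (log2 fold change -0.51, SE 0.10, edgeR adjusted p = 0.00256). SNHG17 (chromosome 20, 38420588 to 38435353, minus strand), the host of SNORA71A, SNORA71B, SNORA71C and SNORA71D, had 93.1, 82.5 and 107 CPM in the knockdown libraries and 129, 130 and 128 CPM in the control libraries. Its groups did not overlap either (-0.45, SE 0.09, edgeR adjusted p = 0.00233). SNHG9, the host of SNORA78 on chromosome 16, had 3.32, 2.84 and 3.15 CPM in the knockdown libraries and 4.12, 4.29 and 4.06 CPM in the control libraries. The fall of SNHG9 (-0.42, SE 0.12, edgeR adjusted p = 0.0167) was lost when library B of either group was left out (edgeR adjusted p = 0.0734 for the knockdown and 0.061 for the control library). The snoRNA genes they hold aside, none of these 3 hosts shares exons with another gene in GENCODE 29. SNORA9 and SNORA78 lie in exons of their hosts.

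SNHG11, the neighbour of SNHG17 that is transcribed away from it and holds another SNORA71 copy, did not pass. It had 31.7, 27.4 and 34.0 CPM in the knockdown libraries and 31.5, 34.1 and 34.4 CPM in the control libraries, with overlap (-0.10, SE 0.09, edgeR adjusted p = 0.392). SNHG4, the host of SNORA74A within the MATR3 locus on chromosome 5, had 10.9, 11.9 and 13.0 CPM in the knockdown libraries and 9.78, 11.9 and 10.6 CPM in the control libraries (0.15, SE 0.10, edgeR adjusted p = 0.269). SNHG31 had 15 to 43 counts in the knockdown and 26 to 50 counts in the control libraries, and did not pass (-0.15, SE 0.36).

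The hosts of small Cajal body RNAs were weakly expressed. SNHG10, the host of SCARNA13 on chromosome 14, had 2.59, 2.77 and 2.62 CPM in the knockdown libraries and 1.66, 1.87 and 1.84 CPM in the control libraries. It was higher without overlap (0.57, SE 0.14, edgeR adjusted p = 0.0063). SNHG20, the host of SCARNA16 on chromosome 17, had 7.45, 7.83 and 7.63 CPM in the knockdown libraries and 6.25, 6.89 and 6.20 CPM in the control libraries. Its groups did not overlap but it missed the threshold (0.24, SE 0.09, edgeR adjusted p = 0.0624). In FPKM its mean was 6.21 in the knockdown and 6.41 in the control group. SEC14L1, which shares 460 exonic bases with SNHG20 on the same strand, was higher (0.26, SE 0.08, edgeR adjusted p = 0.0317). It had 191 CPM in the knockdown and 160 CPM in the control group, and how reads of the 2 genes were divided was not tested. SNHG21, the host of SCARNA15, stood at 0.38 (SE 0.16, edgeR adjusted p = 0.076), also without overlap, and was called higher in both limma fits of filtered FPKM values (adjusted p = 0.0407 and 0.0384). SNHG22, the host of SCARNA17, had 14 to 21 counts in the knockdown and 9 to 24 counts in the control libraries (0.20, SE 0.39). The hosts that were not tested were SNHG28, with 6 to 13 counts in the knockdown and 3 to 16 in the control libraries, SNHG25, with at most 1 count, and SNHG27, with 0 counts in all 6 libraries.

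The spread between libraries was not the same in both groups. Over the 23 hosts averaging at least 5 CPM, the median coefficient of variation was 9.73% in the knockdown and 7.85% in the control group. Knockdown library A held the highest of its group's values for 13 of these hosts, and control library B for 17. The hosts that fell had narrow control values, with an SD of 0.81 CPM around a mean of 129 CPM for SNHG17. This was not particular to them, since SNHG7, which rose, had a control SD of 0.58 CPM around a mean of 86.7 CPM.

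Levels can be set against each other between hosts only per length, for which the deposited FPKM values were used. The highest levels were those of ZFAS1, at 1623 ± 151 FPKM in the knockdown and 1522 ± 140 FPKM in the control group (SD, n = 3 each), and GAS5, at 1123 ± 93.7 FPKM in the knockdown and 822 ± 50.1 FPKM in the control group (SD, n = 3 each). Both stood clear of the next host in each group. In the knockdown group SNHG29 (496.5 FPKM), SNHG6 (470.0 FPKM) and SNHG5 (434.5 FPKM) followed, with overlapping values between neighbours. In the control group SNHG6 (390 FPKM), SNHG32 (341 FPKM), SNHG29 (326 FPKM) and SNHG5 (278 FPKM) followed, again with overlap between neighbours. No host moved by more than 3 places between the groups, and 12 kept their place. SNHG15 was 12th in the knockdown and 9th in the control group, and SNHG32 was 7th in the knockdown and 4th in the control group.

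The length behind the FPKM values differed between hosts and libraries. It was worked out as the count divided by the FPKM and the library total, for the 26 hosts of at least 1 FPKM in every library. The implied length was 82 bp in the knockdown and 80 bp in the control group for SNHG9, and 129 bp and 135 bp for SNHG19, well under the annotated spliced length of 342 bp of SNHG19, so that FPKM values of the shortest hosts rest on few countable positions. For 7 of the 26 hosts (26.9%) the groups did not overlap in implied length, against 16.2% of the 12494 genes for which it could be read. It was shorter in the knockdown group for SNHG18 (520 bp against 587 bp in the control group), SNHG16 (1391 bp against 1502 bp), SNHG19 and SNHG3 (1965 bp against 1983 bp), and longer for ZFAS1 (471 bp against 458 bp), SNHG1 (853 bp against 837 bp) and SNHG15 (735 bp against 717 bp). These are descriptions without a test.

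**Figure D3:**
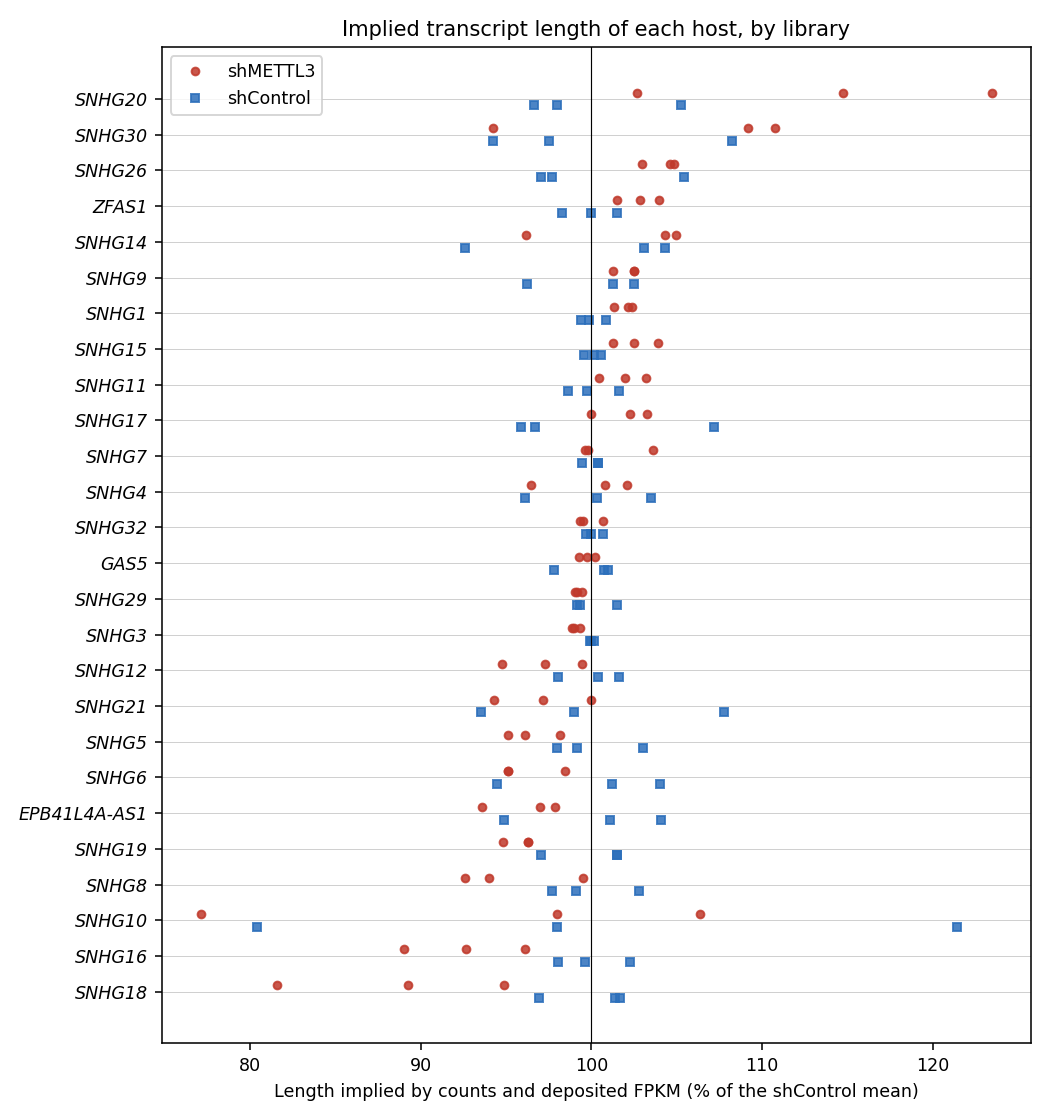
Length implied by the deposited counts and FPKM, as a percentage of the control mean of each host, for 26 hosts in 3 METTL3 knockdown libraries (red) and 3 control libraries (blue), ordered by the ratio of the groups. SNHG18 and SNHG16 lie to the left for all knockdown libraries, ZFAS1, SNHG1 and SNHG15 slightly to the right, and most others overlap.

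Features of the annotated transcripts were set beside the calls. Of the 14 hosts with a promoter window that were higher, 4 had the pyrimidine tract exactly at the annotated start (SNHG5, SNHG12, SNHG18 and SNHG19), and of the 10 that did not pass, 3 had it (ZFAS1, SNHG32 and SNHG4). SNHG17, the host that fell for which a window was at hand, did not have it. The letters CTTTT were searched on the transcribed strand from 10 bases before to 50 bases after the start. They were in 7 of 27 host windows and in 6.56% of all windows. Of these 7 hosts, 6 were higher, beside 14 of all 27 hosts with a window, and a link of the letters to the calls was not tested. On the other strand (AAAAG) the letters were in 0 of 27 host windows and 5.29% of all windows. This search overlaps the tract search, since SNHG5, SNHG19 and SNHG32 were found by both.

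The pentamer GGACT, a frequent core of m6A sites in mRNA, was counted in the longest spliced transcript of each gene in the basic set of GENCODE 29. The hosts held a median of 0.665 per kb, against 0.717 per kb in all long noncoding genes and 0.929 per kb in all protein-coding genes of the table. The 15 hosts that were higher had a median of 0.969 per kb, from 0 in 4 of them to 4.46 per kb in SNHG8. Of the 3 that were lower, SNHG17 and SNHG9 had none and SNHG15 had 0.963 per kb. The 10 that did not pass had a median of 0, with none in 6 of them. No m6A was measured in these libraries, and a GGACT is a match of letters, not a methylated site.

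The snoRNAs themselves could not be read. GENCODE 29 places 143 snoRNA or small Cajal body RNA genes within the hosts on the same strand, all of them with a row in the count table, and 140 of these rows had 0 counts in all 6 libraries. The other 3 were SNORA71B in SNHG17 and SNORA73A and SNORA73B in SNHG3, each at least 204 bases long and with at most 8 counts. Of the 143 genes, 84 lie in SNHG14 and 0 in GAS5, so the RefSeq snoRNAs of GAS5 are not among them. Some, such as SNORA16A, are listed more than once. Across the whole count table, 553 rows have a symbol that begins with SNORD, SNORA or SCARNA and a number, and 16 of them had any count. This choice by symbol differs from the choice of the 143 by gene type. SCARNA13 in SNHG10, the longest of the 140 at 0, has 275 bases. The libraries were made from size-selected fragments, and whether that set these counts was not tested, so they are not read as snoRNA levels.

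Exons that overlap other genes limit some of the values. The sources used here do not say whether counting used the strand. The snoRNA genes held on the same strand were left out of the overlap count, though some lie in host exons. With these left out, 18 of the 31 hosts share exonic bases with another gene in GENCODE 29, 15 of them with one on the opposite strand. Of the 18 hosts called, 8 share none by this count. They are SNHG5, SNHG8, SNHG18, SNHG19 and SNHG26, which were higher, and SNHG9, SNHG15 and SNHG17, which were lower. No tested partner of the other 10 called hosts passed. LRRC75A, opposite SNHG29, had 1.86 CPM in the knockdown and 1.93 CPM in the control group, TRNAU1AP, opposite SNHG12, 12.2 CPM and 10.9 CPM, and GAS5-AS1 0.22 CPM and 0.18 CPM. ZNFX1, which overlaps 249 exonic bases of ZFAS1, fell to 215 CPM in the knockdown group, against 299 CPM in the control group (-0.48, SE 0.10, edgeR adjusted p = 0.00315). How far reads of the pair were divided correctly was not tested.

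Ribosomal protein genes are the best known coding hosts. Of 27 ribosomal protein genes that carry snoRNAs, 15 were higher, 0 were lower and 12 did not pass, with a median log2 fold change of 0.32, against 16.5% of all genes higher. RPS3 averaged 785 CPM in the knockdown and 465 CPM in the control group (0.76, SE 0.13), and RPL12, RPL7A and RPL13A had log2 fold changes of 0.75 (SE 0.13), 0.49 (SE 0.11) and 0.48 (SE 0.11). Reads of these genes may be shared with their processed pseudogenes. The number higher was 8 when knockdown library A or B or control library C was left out, 9 when control library B was, and 9 with library size scaling.

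Of 30 coding hosts that are not named as ribosomal proteins, 2 were higher, 10 were lower and 18 did not pass (median -0.08), against 16.5% of all genes higher and 16.9% lower. The 2 that rose were TMEM107, a ciliary membrane protein gene with the U8 snoRNA SNORD118 (0.81, SE 0.10), and RACK1, which binds the small ribosomal subunit and could as well be counted with the ribosomal hosts (0.65, SE 0.11). The falls included NOP56 (-0.53, SE 0.08), a core box C/D protein, WDR43 (-0.46, SE 0.08), a nucleolar protein, and NCL (-0.44, SE 0.10), nucleolin. The number called was 5 without control library A, and 6 when library B of either group was left out.

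snoRNAs work in particles with proteins (snoRNPs). Of 21 genes of snoRNP core and assembly proteins, 0 were higher, 10 were lower and 11 did not pass (median -0.21), against 16.9% of all genes lower. NOP56 and DKC1, both lower, are counted here and also among the other coding hosts above, so the lists are not separate. NOP56 had 219 CPM in the knockdown and 316 CPM in the control group, and NOLC1, ZNHIT6 and NOP58 had log2 fold changes of -0.45 (SE 0.08), -0.43 (SE 0.08) and -0.35 (SE 0.07). NOLC1 shuttles between nucleolus and Cajal bodies, ZNHIT6 assembles box C/D particles and NOP58 is one of their core proteins. FBL, the ribose methylase of these particles, did not pass (0.20, SE 0.10, edgeR adjusted p = 0.131). The number lower was 5 when library B of either group was left out.

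Of 20 factors of nonsense-mediated decay, which degrades many spliced hosts, 0 were higher, 8 were lower and 12 did not pass (median -0.20), against 16.9% of all genes lower. RBM8A and MAGOH, a pair of exon junction proteins, were the clearest (-0.54, SE 0.08, and -0.51, SE 0.08), followed by the termination factors GSPT1 (-0.25, SE 0.08) and ETF1 (-0.23, SE 0.08). The helicase UPF1, the central factor, had 124 CPM in the knockdown and 144 CPM in the control group and did not pass (-0.21, SE 0.08, edgeR adjusted p = 0.0535). Most of these changes were small, and the number lower was 2 or 3 when any library other than knockdown library C was left out and 3 without a filter on low counts.

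Of 16 regulators of TOP transcripts, 2 were higher, 5 were lower and 9 did not pass (median -0.10), against 16.5% of all genes higher and 16.9% lower. The share higher was no larger than over all genes, and the share lower was larger. LARP1, which binds the capped pyrimidine tract, had 207 CPM in the knockdown and 201 CPM in the control group (0.04, SE 0.09). LARP4 (-0.67, SE 0.10), the kinase gene RPS6KB2 (-0.48, SE 0.08) and MTOR (-0.40, SE 0.10) were lower, and EIF4EBP1, a repressor of cap-dependent translation (0.75, SE 0.15), was higher, as was MLST8, an mTOR complex subunit (0.29, SE 0.08). The number called was 4 without control library C.

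**Figure D4:**
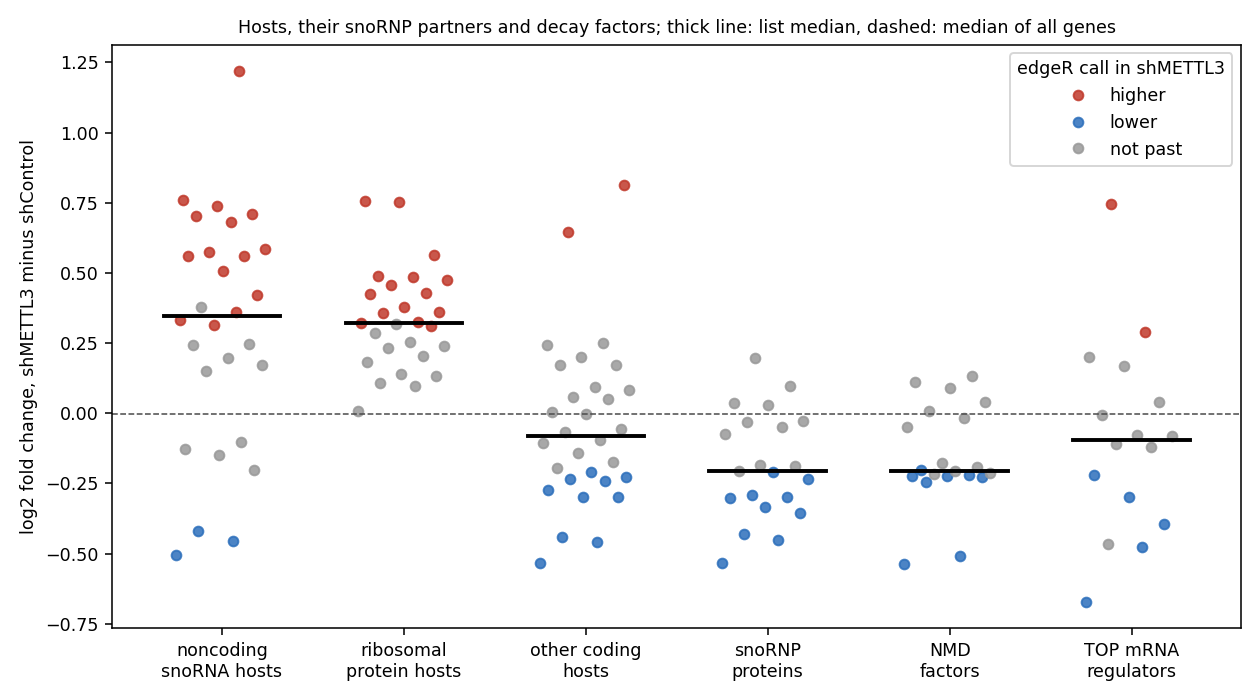
Log2 fold change, METTL3 knockdown minus control, of each tested member of 6 gene lists, coloured by its edgeR call, with a thick line at each list's median and a dashed line at the median of all genes (-0.0030). The medians are 0.35 for the noncoding snoRNA hosts, 0.32 for the ribosomal protein hosts, -0.08 for other coding hosts, -0.21 for snoRNP proteins, -0.20 for decay factors and -0.10 for regulators of TOP transcripts.

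Mitochondrially encoded transcripts took 7.77% to 8.50% of the counts in the knockdown and 4.23% to 4.75% in the control libraries. With these transcripts left out of the fit, 15 hosts were higher and 3 lower, at a median log2 fold change of 0.35, the same numbers as with them. Any other part of this difference in the host values was not tested.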

How the data were processed

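RNA-seq libraries of 786-O cells were depleted of ribosomal RNA and sequenced from both ends, per the labels' protocols. STAR 2.7.10b, Salmon and the build GRCh38 are named, without roles, in the submitters' processing notes. The annotation release and strand setting are not stated there. The authors deposited whole-number counts and FPKM values for 61860 genes, and the deposited counts were used for the tests. Column letters are not tied to the labels' replicate numbers.

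Counts were filtered with filterByExpr (18740 genes left), scaled by TMM and tested with edgeR 4.0.16 (quasi-likelihood, Benjamini-Hochberg adjustment at 0.05) in R 4.3.3; SEs were derived from the F statistic. No library repeated another, since counts within a group varied beyond sampling (lowest chi-square over its degrees of freedom 16.5). The procedure was tested on simulated counts. Library totals ran from 100534896 to 103624456 counts. Whether depth or the number of libraries limits the precision more was not tested. Positions and overlaps came from GENCODE 29, in which all 31 hosts were found, 4 under other names. snoRNA classes and promoter windows came from RefSeq.

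Hosts averaging at least 5 CPM are given by library, as are 2 weaker ones that were called; other lists are represented by the members with the smallest p and a few named for their role after their values were seen. The members and lists were chosen with earlier results of these data known.
Alternatives were DESeq2-type size factors, library size scaling, TMM without mitochondrial transcripts, DESeq2 1.42.0, limma-voom (limma 3.58.1), 2 other filters, limma on FPKM of at least 0.5 in 3 libraries after adding 1 or 0.1 and taking log2, limma on all FPKM values plus 1, a block for the column letter, and leaving out each library.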

Additional observations from a re-analysis of the deposited data

How the results depend on the processing

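No call of a host reversed in any alternative, and 11 of the 18 called hosts, GAS5, SNHG5, SNHG8, SNHG12, SNHG15, SNHG16, SNHG17, SNHG18, SNHG19, SNHG26 and SNHG29, were called in all 17 alternatives. The number of hosts called ran from 12 (limma on unfiltered log2(FPKM + 1)) to 20 (with the replicate block), against 18, and from 16 to 18 when 1 library was left out. Besides SNHG6 and SNHG30, the hosts that lost their call in an FPKM fit were SNHG3, SNHG7 and EPB41L4A-AS1 (unfiltered) and SNHG10 (unfiltered, and after adding 0.1). Deviations of same-letter libraries from their group means correlated at r = -0.0185, -0.0493 and 0.169 for A, B and C. Pairs of unlike letters ran from -0.122 to 0.144. With 3 libraries a group these values depend on each other and cannot decide whether a letter marks a shared culture or batch. No label ties the letters between the groups, so the block is not read as a paired analysis. Unfiltered log2(FPKM + 1) gave 3271 calls over all genes, 0 among ribosomal hosts and 3 among regulators of TOP transcripts. Ribosomal hosts called were 9 with library size alone and 7 in each fit of filtered FPKM, and decay factors called were 3 without a filter on low counts. Leaving out 1 library in turn gave 4012 to 6589 calls over all genes, 5 to 11 snoRNP proteins, 2 to 9 decay factors, 8 to 21 ribosomal hosts, 5 to 12 other coding hosts and 4 to 7 regulators of TOP transcripts. The cause of these shifts was not tested.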
